A study of Homo sapiens with 24 samples.

Results

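The nuclear genes for the proteins of the mitochondrial ribosome were followed in K562 cells, an established human erythroleukaemia line, after repression of the blood transcription factor gene GATA1 or of a candidate enhancer of it. Members were all entries of the count table whose symbol is MRPS or MRPL followed by a number and at most 1 letter. Their mean level had to be at least 5 CPM. CPM are counts scaled to the library's total times a scaling factor (TMM) of that library. The rule took 66 of 21925 entries (0.301%), of which 26 carry a small-subunit symbol (MRPS) and 40 a large-subunit symbol (MRPL). No symbol of this form fell below the level minimum, and all 66 passed the filter on low counts that left 13147 genes for testing.

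Mitochondrial ribosomes translate the few membrane proteins of the respiratory chain that mitochondrial DNA still encodes. All of their proteins are encoded in the nucleus, made in the cytosol and imported, then assembled with ribosomal RNAs transcribed inside the organelle. Many descend from bacterial ribosomal proteins and others occur only in mitochondria. Erythroid cells rely on mitochondria for part of heme synthesis. Symbols do not always follow later structures: the products of MRPS30 and MRPS18A sit in the large subunit, and that of MRPS36 is now known as a part of a dehydrogenase complex, so the subunits are given here by symbol.

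All cells expressed catalytically dead Cas9 joined to the KRAB repressor domain from a promoter switched on by doxycycline, were transduced with 1 sgRNA and received doxycycline for 24 hours. The controls therefore carried the same repressor and treatment. Of 8 sgRNAs, 2 target the transcription start site of GATA1 (GATA1TSS-Guide1 and GATA1TSS-Guide2), 2 target the putative enhancer eHDAC6 (eHDAC6-Guide1 and eHDAC6-Guide2) and 4 are non-targeting controls (NC-Guide1 to NC-Guide4). Each sgRNA has 3 libraries described as biological replicates, which gives 24 polyadenylated-RNA libraries from 10000 lysed cells each, all in this 1 cell line.

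Library totals ran from 4290343 to 23205811 counts with a median of 13479250.5, and the smallest belongs to GATA1TSS-Guide2 replicate 2. The lowest count of any member in any library was 48. GATA1 itself, the check of the labels, averaged 338 to 383 CPM with the NC sgRNAs, 247 and 260 CPM with the eHDAC6 sgRNAs, and 117 and 53.1 CPM with GATA1TSS-Guide1 and GATA1TSS-Guide2 (n = 3 each). The K562 globin markers HBG1 and HBE1 ran from 1740 to 3720 CPM and from 1610 to 3950 CPM over the libraries. Of the markers of other cells, the myeloid set summed to at most 2.05 CPM, the B cell set to at most 10.3 CPM, the fibroblast set to at most 29.1 CPM and the T cell set to at most 45.3 CPM, nearly all of it from CD3D. KRT19 and EPCAM brought the epithelial set to 222 to 395 CPM. The control libraries fell apart along the first principal component computed without the members (26.1% of the variance): 4 of them, replicates 2 and 3 under NC-Guide3 and under NC-Guide4, lay apart from the other 8. This split was seen in the data and is no label, so the comparisons of GATA1TSS and of eHDAC6 with NC were also run against the 4 and against the 8, and those of single sgRNAs were not.

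Members were expressed at a middle to high level and varied little. Their median mean level was 61 CPM against 27.3 CPM over all genes tested, and the median SD of log2(CPM + 1) over the 24 libraries was 0.153 against 0.209. The lowest mean level was 12.6 CPM among members and 0.227 CPM among all genes tested. No comparison with genes of matched level was made. In CPM per kilobase of exon, levels ran from 8.01 for MRPL19 to 137 for MRPL37, a 17.1-fold range with a median of 44.1. Above the median stood MRPL37 with MRPL21 (110) and MRPL20 (104) in the large subunit, and MRPS15 (114), MRPS24 (99.6) and MRPS18B (97.8) in the small subunit. At the low end lay MRPL19, MRPL57 (10.5) and MRPL46 (12.6), and MRPS11 (14), MRPS31 (17.8) and MRPS14 (18.7). These are levels per kilobase of all annotated exon, so long or unused exons lower them. MRPL19 has 7827 bases of annotated exon, the most of any member, against a median of 1334.

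The steadiest members were MRPL9, MRPS16 and MRPL16. MRPL9 lay between 48 and 57.7 CPM in all 24 libraries, with an SD of 0.0703 on the log2(CPM + 1) scale. The most variable were MRPL1 (SD 0.361), MRPS12 (0.252) and MRPS17 (0.233). MRPL1 ran from 16.6 to 51.1 CPM, and its highest values came from a single control sgRNA, NC-Guide2.

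Summed over the 66 members, the level was 4538 ± 193 CPM (SD, n = 12) with the NC sgRNAs, 4397 ± 116 CPM (n = 6) with eHDAC6 and 4276 ± 263 CPM (n = 6) with GATA1TSS. The means with the elements were 96.9% and 94.2% of the NC mean, and the ranges of the 3 sets of libraries overlapped. CPM here are relative levels, scaled by the library's total times its TMM factor. Those factors were 1.033, 1.025 and 1.021 for GATA1TSS-Guide2 and ran from 0.9515 to 1.025 for NC. Sums scaled by library totals alone are not given. In bulk RNA fewer cells that express a gene and less RNA per cell cannot be told apart. GATA1TSS-Guide2 had the lowest mean, 4102 ± 208 CPM (n = 3), while GATA1TSS-Guide1 had a mean of 4451 ± 196 CPM, within the range of the control libraries. The shallowest library, GATA1TSS-Guide2 replicate 2, was also the lowest at 3862.85 CPM, and without it GATA1TSS was at 96.1% of NC and GATA1TSS-Guide2 at 93% in place of 90.4%.

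The controls differed in their sums too. NC-Guide1 averaged 4308 ± 47.4 CPM and NC-Guide2 4765 ± 109 CPM (n = 3 each), without overlap, so that NC-Guide1 stood at 90.4% of NC-Guide2. Both subunits showed it, at 90.2% for the small and 90.6% for the large. The 4 control libraries that lay apart summed to 4530 ± 58.3 CPM and the other 8 to 4542 ± 239 CPM. The share of the sum held by small-subunit genes stayed between 41.53% and 44.16% in every library.

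**Figure D1:**
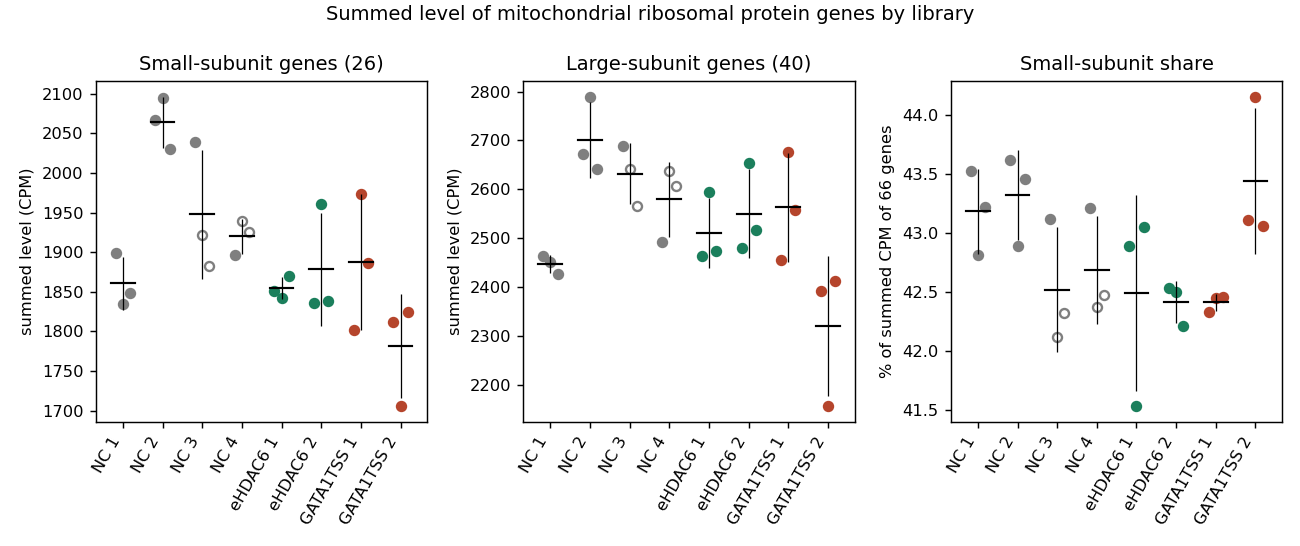
Summed level in CPM of the 26 small-subunit and 40 large-subunit genes, and the small-subunit share in percent, by sgRNA (y axes do not start at 0). Points are libraries (open: the 4 control libraries that lay apart), horizontal bars means and vertical lines SD (n = 3); NC-Guide2 is the highest group in both subunits and GATA1TSS-Guide2 the lowest.

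With repression of the GATA1 promoter, 13 members were lower than with the NC sgRNAs and 0 were higher, at an adjusted p under 0.05 from edgeR's quasi-likelihood test over all genes (the rule behind each call below). Over all genes tested, 13.7% were called lower and 13.5% higher, against 19.7% and 0% of the members. The lower members were 6 of 26 small-subunit genes (MRPS30, MRPS23, MRPS9, MRPS35, MRPS10 and MRPS27) and 7 of 40 large-subunit genes (MRPL30, MRPL24, MRPL34, MRPL32, MRPL12, MRPL48 and MRPL42). The changes were small: log2 differences ran from -0.34 to 0.16. Of the 66, 55 lay below 0, beside 6651 of the 13147 genes tested. The median log2 difference of the members was -0.065 beside -0.003 over all genes. That median was -0.125 without the sgRNA GATA1TSS-Guide1, -0.111 without NC-Guide1, -0.031 without GATA1TSS-Guide2 and -0.027 with scaling by library totals. Against the 8 control libraries 40 members lay below 0 (beside 6331 of 13730 genes), and against the 4, 52 (beside 6484 of 13126). The median size without sign, 0.08, was below the 0.146 of all genes, and the median SE was also smaller (0.062 beside 0.084). By origin, 7 of 42 members with a bacterial counterpart and 6 of 23 mitochondria-specific members were lower.

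Among the small-subunit symbols, MRPS30 moved most. Its level with NC had a lowest, median and highest value of 59.5, 64.5 and 74.6 CPM. With GATA1TSS these were 45.9, 52.7 and 56.1 CPM, and with eHDAC6 52.7, 55.3 and 58 CPM. Every library of either element lay below every control library, and how many of all genes tested do so was not counted. The log2 difference was -0.34 (SE 0.047, adjusted p = 5.63e-06) for GATA1TSS, lower in 6 of 6 libraries, and -0.24 (SE 0.047, adjusted p = 0.00047) for eHDAC6, also in 6 of 6. Both comparisons use the same 12 control libraries. The gene lies on chromosome 5 from 44809027 to 44815618 (hg19, plus strand, 5 exons) and encodes a protein found in mitochondrial but not bacterial ribosomes.

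MRPS23 (mitochondria-specific) fell by 0.26 on the log2 scale (SE 0.078, adjusted p = 0.0147), from 52 ± 5.19 CPM (n = 12) to 42.9 ± 6.13 CPM (n = 6). MRPS9 and MRPS10, counterparts of bacterial small-subunit proteins, fell by 0.21 (adjusted p = 0.0118) and 0.20 (adjusted p = 0.0211). MRPS35 fell by 0.21 (adjusted p = 0.017) and MRPS27, an RNA-binding protein of the pentatricopeptide repeat family, by 0.20 (SE 0.052, adjusted p = 0.00566). In each of these 5 the element's libraries overlapped those of the controls. The call for MRPS10 was lost without GATA1TSS-Guide1 replicate 1 (-0.15, adjusted p = 0.0959) or GATA1TSS-Guide2 replicate 1 (-0.18, adjusted p = 0.0736), and that for MRPS35 without either of these or GATA1TSS-Guide2 replicate 3 (adjusted p = 0.0751, 0.083 and 0.0607).

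In the large subunit MRPL30, the counterpart of a bacterial protein, moved most. Its lowest, median and highest levels were 93, 102 and 133 CPM with NC, 80.5, 86.6 and 88.1 CPM with GATA1TSS, and 77.4, 92.7 and 101 CPM with eHDAC6. All 6 GATA1TSS libraries lay below all 12 control libraries, while the eHDAC6 libraries overlapped them. The log2 difference was -0.28 (SE 0.054, adjusted p = 0.000271) for GATA1TSS and -0.18 (SE 0.054, adjusted p = 0.0133) for eHDAC6. The eHDAC6 call was lost without eHDAC6-Guide2 replicate 3 (-0.14, adjusted p = 0.0663). The gene lies on chromosome 2 from 99797542 to 99816020 (hg19, plus strand).

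MRPL34 stood at 42.9 ± 4.79 CPM with GATA1TSS and 49.2 ± 4.1 CPM with NC, a log2 difference of -0.19 (SE 0.055, adjusted p = 0.0103). Without the sgRNA GATA1TSS-Guide2 the difference was -0.075 (adjusted p = 0.516). MRPL24 differed by -0.23 (adjusted p = 0.0387), a call lost in 11 of the 18 fits that each left out 1 library. MRPL32, whose product is matured by a mitochondrial inner-membrane protease, differed by -0.19 (adjusted p = 0.0166), lost without GATA1TSS-Guide1 replicate 1 (adjusted p = 0.0564) or GATA1TSS-Guide2 replicate 3 (adjusted p = 0.0723). MRPL12, a stalk protein also known to bind the mitochondrial RNA polymerase, differed by -0.17 (adjusted p = 0.0347), lost in 8 of 18 such fits.

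The count of 13 lower members changed with the libraries, the scaling and the unit of replication. With counts summed per sgRNA, so that the sgRNA is the replicate, it was 0, and MRPS30 had an adjusted p of 0.0551. Without the sgRNA GATA1TSS-Guide2 it was 2, MRPS30 and MRPL30. It was 6 without GATA1TSS-Guide1 replicate 1, and 1 member was higher without NC-Guide1 replicate 1 (MRPS11) or NC-Guide2 replicate 1 (MRPL35). Without the shallowest library it was again 13, of which 11 were among the original 13. Scaling by library totals in place of TMM gave 7 lower and 2 higher, MRPL35 and MRPS11. The share of all genes called in each of these fits is not set beside the counts. Whether a loss of calls in the members went beyond a loss in all genes is therefore not assessed here.

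**Figure D2:**
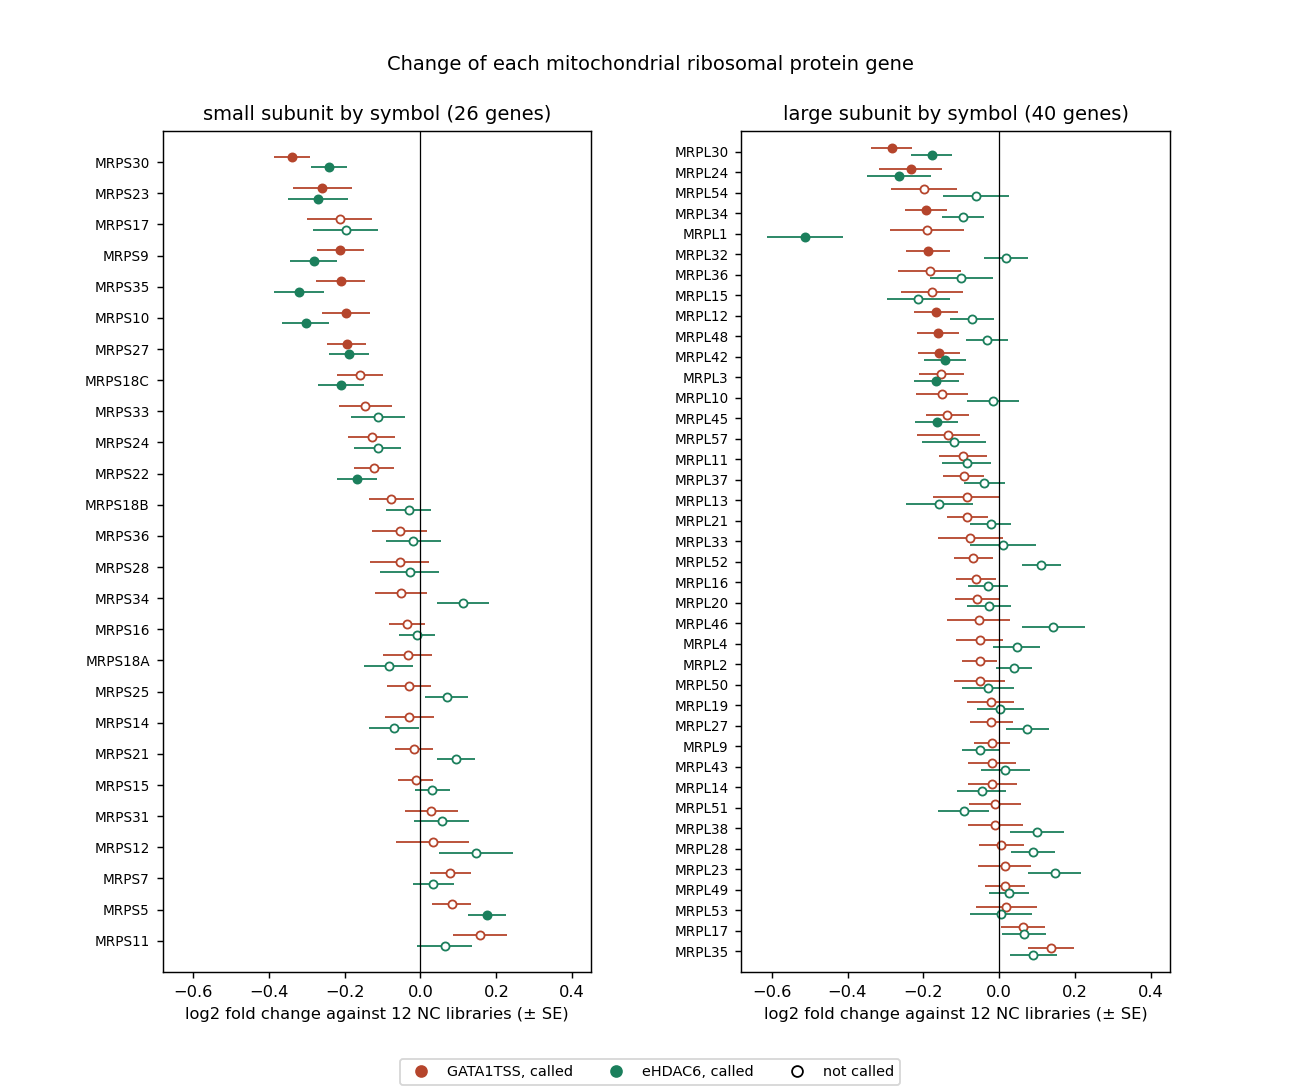
Log2 fold change of each member against the 12 NC libraries, for GATA1TSS (red) and eHDAC6 (green), with lines for 1 SE and filled points for called genes; genes are ordered by the GATA1TSS value. MRPS30 and MRPL30 head the 2 subunits for GATA1TSS, and MRPL1 has the lowest eHDAC6 value, -0.51.

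With repression of eHDAC6, 14 members were lower and 1, MRPS5, was higher than with NC, beside 15.3% lower and 15.8% higher over all genes tested. The lower genes were 8 of 26 in the small subunit (MRPS35, MRPS10, MRPS9, MRPS23, MRPS30, MRPS18C, MRPS27 and MRPS22) and 6 of 40 in the large subunit (MRPL1, MRPL24, MRPL30, MRPL3, MRPL45 and MRPL42). Of 66 members 41 lay below 0, beside 6768 of the 13147 genes tested. The median log2 difference of the members was -0.031 beside -0.009 over all genes. That median was -0.014 without NC-Guide4 replicate 3, -0.05 without eHDAC6-Guide2 replicate 2, -0.005 without the sgRNA eHDAC6-Guide1 and -0.068 without NC-Guide1. Against the 8 control libraries it was -0.011 with 35 members below 0 (beside 6494 of 13730 genes). Against the 4 it was -0.047 with 52 (beside 6661 of 13126). The count of lower members was 9 without eHDAC6-Guide2 replicate 3. The call for MRPL42 was lost in 14 of the 18 fits that each left out 1 library. MRPS5 was the member higher with eHDAC6; none was called higher without eHDAC6-Guide1 replicate 1, and 2 were without NC-Guide3 replicate 3 (MRPS5 and MRPL52).

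MRPS35 had lowest, median and highest levels of 99.4, 112 and 158 CPM with NC and 84.2, 95.7 and 98.2 CPM with eHDAC6, without overlap. Its log2 difference was -0.32 (SE 0.066, adjusted p = 0.000659). With GATA1TSS the values were 89.4, 99.9 and 123 CPM and overlapped the controls. MRPS10 differed by -0.30 (SE 0.063, adjusted p = 0.000835), from 77.6 ± 11.1 CPM to 62.6 ± 3.47 CPM. MRPS9 (-0.28, adjusted p = 0.0013) and MRPS23 (-0.27, adjusted p = 0.0109) followed. Each of these 4 was below the NC mean in 6 of 6 libraries. MRPS35, MRPS10 and MRPS9 also differed among the NC sgRNAs, with NC-Guide2 highest, and were still called lower without NC-Guide2.

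MRPL1, the counterpart of the bacterial protein of the ribosome's L1 stalk, had the largest difference with eHDAC6, -0.51 (SE 0.1, adjusted p = 0.000451). Its levels were 16.6, 19 and 20.6 CPM (lowest, median and highest) with eHDAC6 and 17.5, 24 and 51.1 CPM with NC. The controls overlapped the element and were themselves uneven: NC-Guide2 gave 51.1, 35.6 and 33.9 CPM and NC-Guide1 22.1, 21.5 and 24.3 CPM. MRPL3 and MRPL45 differed by -0.17 (adjusted p = 0.0337) and -0.17 (adjusted p = 0.0293), calls lost in 8 and 7 of 18 fits that left out 1 library. MRPS5 rose by 0.18 (SE 0.051, adjusted p = 0.0109), from 95.8 ± 8.67 CPM to 108 ± 5.12 CPM, and was not called without eHDAC6-Guide1 replicate 1 (0.15, adjusted p = 0.0532).

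**Figure D3:**
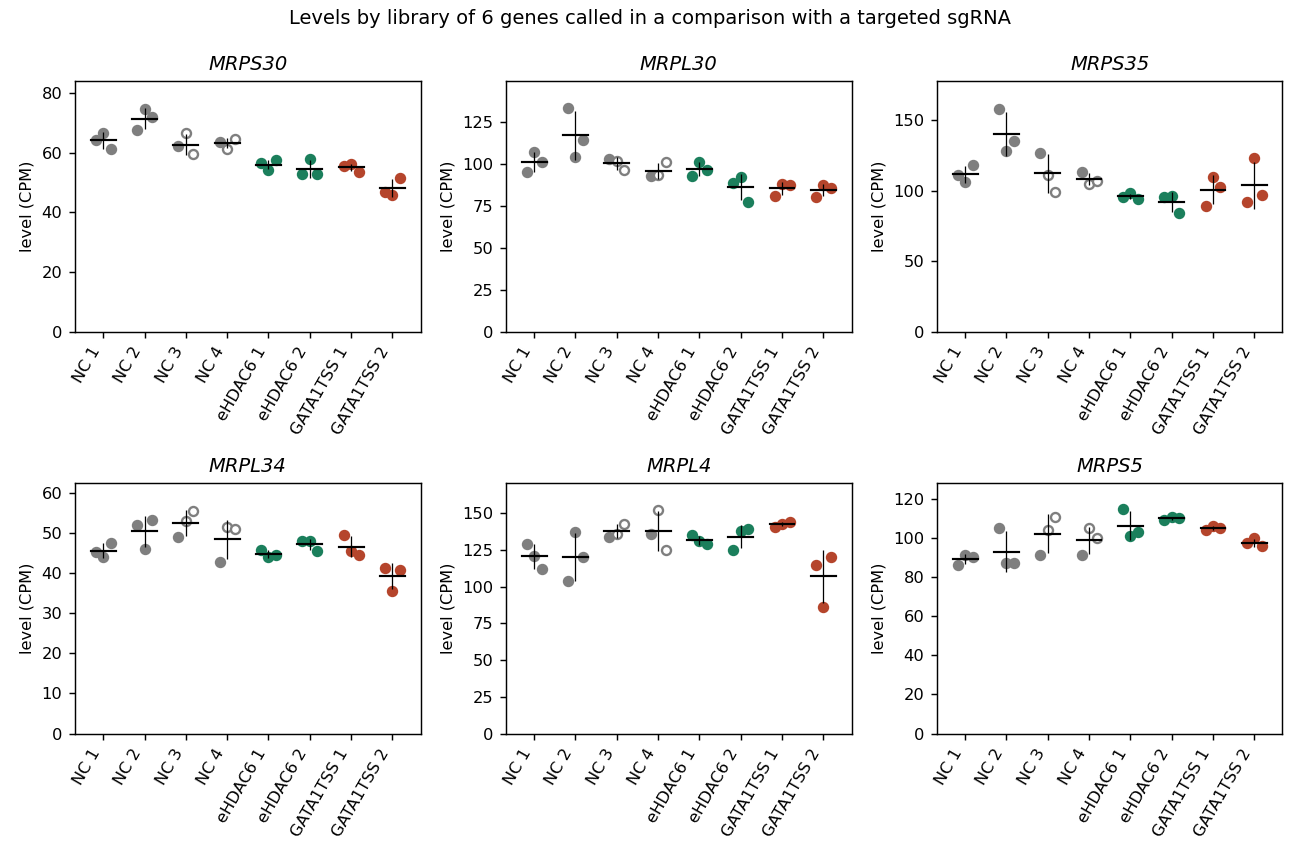
CPM by library of MRPS30, MRPL30, MRPS35, MRPL34, MRPL4 and MRPS5 for the 8 sgRNAs, with means (bars) and SD (lines, n = 3); open grey points are the 4 control libraries that lay apart. All eHDAC6 and GATA1TSS points of MRPS30 lie below all NC points.

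The promoters of MRPS30, MRPL30 and MRPS35 are shown so that the motifs searched in all members can be seen in them. These are the members whose libraries did not overlap the controls with an element. For MRPS35 the margin was narrow, 98.2 CPM with eHDAC6 against 99.4 CPM with NC. The share of all genes tested without such overlap was not counted. The 250 bases before the RefSeq start are given (GRCh38.p14, 5′ to 3′ on the gene's plus strand) at chr5:44808697-44808946, chr2:99180934-99181183 and chr12:27710582-27710831. Capitals mark matches of the motifs named in the next paragraph.
MRPS30: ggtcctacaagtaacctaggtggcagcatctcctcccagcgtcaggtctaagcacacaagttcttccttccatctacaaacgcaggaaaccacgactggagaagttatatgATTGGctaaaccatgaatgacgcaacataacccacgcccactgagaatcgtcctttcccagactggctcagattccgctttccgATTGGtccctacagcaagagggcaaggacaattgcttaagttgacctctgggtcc
MRPL30: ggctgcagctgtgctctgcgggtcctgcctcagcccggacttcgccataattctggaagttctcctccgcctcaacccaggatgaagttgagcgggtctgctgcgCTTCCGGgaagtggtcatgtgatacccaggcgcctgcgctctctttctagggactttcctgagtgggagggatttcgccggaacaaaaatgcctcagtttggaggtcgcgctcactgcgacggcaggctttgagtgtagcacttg
MRPS35: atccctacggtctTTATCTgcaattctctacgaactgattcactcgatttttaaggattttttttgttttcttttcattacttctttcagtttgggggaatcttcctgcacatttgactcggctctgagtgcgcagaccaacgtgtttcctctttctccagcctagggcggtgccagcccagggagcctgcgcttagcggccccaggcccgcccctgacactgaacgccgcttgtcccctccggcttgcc
MRPS30 holds 2 CCAAT boxes, MRPL30 holds 1 ETS motif and MRPS35 holds 1 GATA motif, so the 3 windows share none.

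RefSeq windows matched 57 of the 66 members, and motifs were searched on both strands by exact letters, with none contained in another. The ETS motif CCGGAAG was in 19 of 57 (33.3%) beside 8.82% of 27305 windows of the same length, in 8 of 24 small-subunit and 11 of 33 large-subunit genes. The NRF1 motif GCATGCGC was in 8.77% of members beside 2.81%, and the YY1 motif AAGATGGC in 7.02% beside 1.37%. These 3 factors are known for promoters of housekeeping and mitochondrial genes. The GATA motif AGATAA was in 2 members, MRPL11 and MRPS35 (3.51% beside 9.37%), and the CCAAT box in 26.3% beside 33%. The E-box CACGTG was in 8.77% beside 6.49%, the ZBTB33 or HCF1 motif TCTCGCGA in 3.51% beside 1.05%, and the ATF4 motif TGATGCAA in 0 of 57 beside 0.82%. The median GC content of the windows was 58.8% for members and 58% for all, and no motif match is evidence that a factor binds there.

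Each sgRNA was also compared with NC on its own. Against NC, GATA1TSS-Guide1 lowered 2 members, MRPS30 (-0.25, adjusted p = 0.00968) and MRPL30 (-0.27, adjusted p = 0.0117), beside 5.8% of genes lower and 6.21% higher. GATA1TSS-Guide2, the stronger repressor of GATA1, lowered 14 and raised 0, beside 12.4% in each direction. The median log2 difference of the members was -0.034 for GATA1TSS-Guide1 and -0.124 for GATA1TSS-Guide2. MRPS30 differed by -0.43 (SE 0.063, adjusted p = 1.04e-05) with GATA1TSS-Guide2, and MRPL12 and MRPL34 by -0.32 and -0.31, each with no overlap with the controls. The counts were unsteady: GATA1TSS-Guide1 had 0 without its replicate 1, 1 without its replicate 3 and 6 without NC-Guide3 replicate 3, and GATA1TSS-Guide2 had 8 without its replicate 1.

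Tested directly, 2 members differed between these sgRNAs, MRPL4 and MRPL2, beside 3.48% of all genes. MRPL4, whose bacterial counterpart lines the exit tunnel, stood at 141, 143 and 144 CPM with GATA1TSS-Guide1 and at 115, 86.2 and 120 CPM with GATA1TSS-Guide2, a log2 difference of -0.40 (SE 0.102, adjusted p = 0.0271). MRPL2, the counterpart of a protein near the peptidyl transferase centre, stood at 90, 88.9 and 93.4 CPM and at 75.5, 68.9 and 77.9 CPM, a difference of -0.29 (SE 0.077, adjusted p = 0.0354). Neither gene overlapped between the sgRNAs. The lowest value of both came from the shallowest library, GATA1TSS-Guide2 replicate 2, and without it neither was called (MRPL4 -0.28, adjusted p = 0.142; MRPL2 -0.24, adjusted p = 0.126). The count was also 0 without any 1 of the 3 GATA1TSS-Guide1 libraries, and 1, MRPL4, without GATA1TSS-Guide2 replicate 1 or 3. MRPL12, MRPS34 and MRPL37 came next (-0.30, -0.31 and -0.24) with adjusted p of 0.0724, 0.128 and 0.137.

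eHDAC6-Guide1 lowered 5 members, MRPL1, MRPS9, MRPS35, MRPS10 and MRPS30, beside 7.35% of genes lower and 9.33% higher. eHDAC6-Guide2 lowered 8 and raised MRPS5, beside 8.91% lower and 10.3% higher. The first count was 1, 1 and 0 without its own replicates 1, 2 and 3, and the second total, 9, was 5 and 2 without its own replicates 1 and 3. No member differed between the eHDAC6 sgRNAs by edgeR or by DESeq2, 0 had an unadjusted p under 0.05, and 0.0152% of all genes were called. Log2 differences there ran from -0.21 for MRPS11 (SE 0.119) to 0.19 for MRPL54 (SE 0.143), and MRPL30 had the smallest unadjusted p (-0.17, SE 0.087).

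The elements compared with each other, a contrast that uses no control, gave 0 called members by edgeR and by DESeq2, with 4 at an unadjusted p under 0.05, beside 1.53% of all genes called. Log2 differences of eHDAC6 from GATA1TSS ran from -0.32 for MRPL1 (SE 0.113, adjusted p = 0.161) to 0.21 for MRPL32 (SE 0.067, adjusted p = 0.119). MRPL52 (0.18, adjusted p = 0.134) and MRPS34 (0.16, adjusted p = 0.33) were the others with a small unadjusted p. For MRPL32 every eHDAC6 library, at 49.6 to 54.1 CPM, lay above every GATA1TSS library, at 42.2 to 47.7 CPM. MRPS30 was 0.098 higher with eHDAC6 (SE 0.054, adjusted p = 0.404) and MRPL30 0.11 higher (SE 0.062, adjusted p = 0.434).

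The non-targeting sgRNAs differed among themselves in 11 members, beside 12.3% of all genes. These were MRPL1, MRPL19, MRPL35, MRPL42, MRPL50, MRPS9, MRPS10, MRPS17, MRPS22, MRPS33 and MRPS35, and NC-Guide2 had the highest mean of the 4 controls in all 11. Of all 66 members, 36 were highest with NC-Guide2 and 37 lowest with NC-Guide1. How often this holds over all genes tested was not counted, so it is not shown to be particular to the members. MRPS33 stood at 45.6, 44.9 and 41.4 CPM with NC-Guide2 and 27.3, 31.9 and 32.1 CPM with NC-Guide1, without overlap (adjusted p over the 4 controls 0.0182). MRPS17 stood at 27.2, 22.1 and 20.6 CPM and at 18.5, 13.1 and 14.2 CPM (adjusted p = 0.0188). In MRPL35 the low group stood out: NC-Guide1, at 76.6, 69.7 and 69 CPM, was below every other control library but NC-Guide4 replicate 1 (70.5 CPM).

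These control calls changed with the libraries used. The share of all genes called in each such fit is not set beside the counts. The changes are therefore not shown to be particular to the members. The count was 0 without NC-Guide2 replicate 1 and 0 when the 12 control libraries were fitted alone. It was 5, 3 and 7 without replicates 1, 2 and 3 of NC-Guide1, 19 without NC-Guide3 replicate 1 and 6 without NC-Guide4 replicate 2. These libraries are also the controls of the element comparisons. Without NC-Guide2 the count of lower members was 8 for GATA1TSS and 5 for eHDAC6, the latter being MRPL1, MRPS9, MRPS10, MRPS30 and MRPS35.

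**Figure D4:**
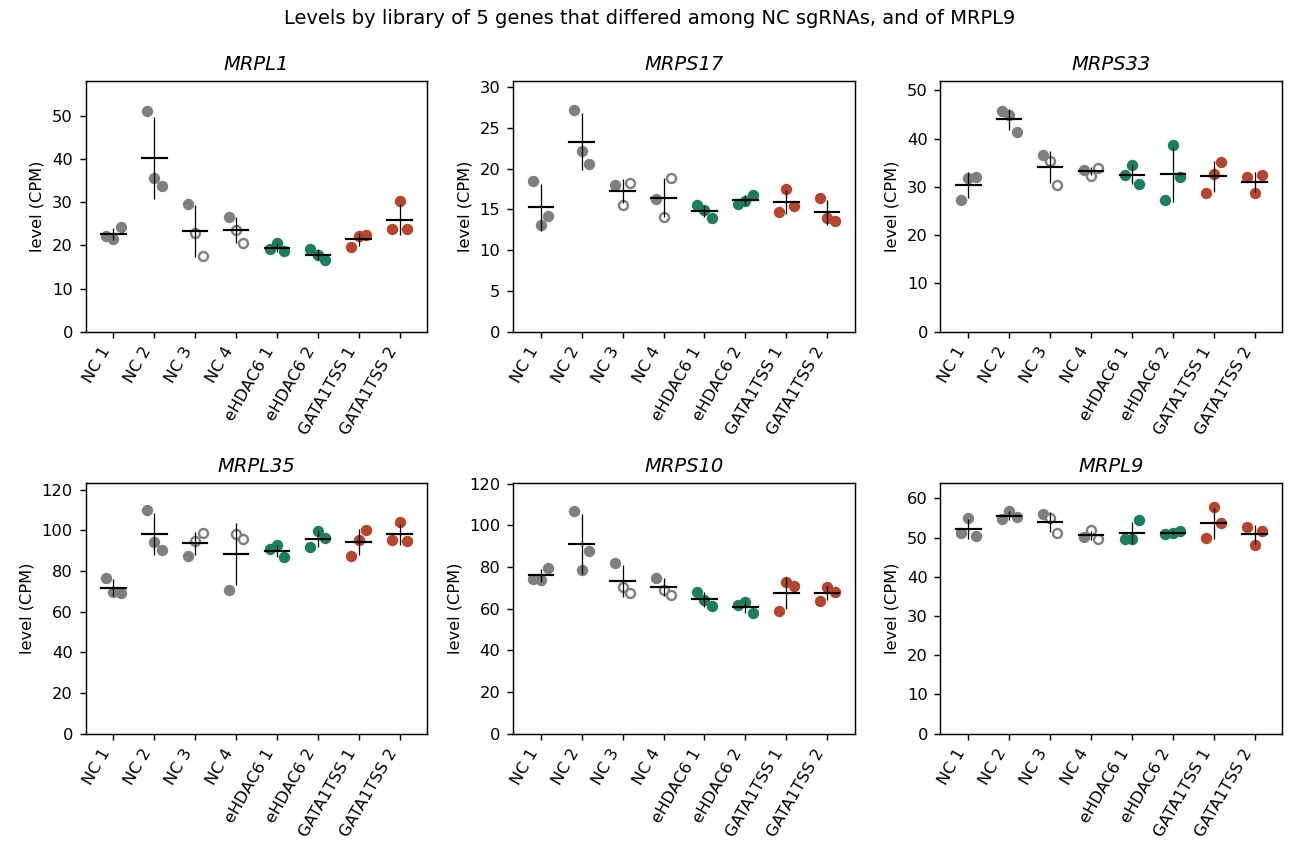
CPM by library of 5 members that differed among the NC sgRNAs (MRPL1, MRPS17, MRPS33, MRPL35 and MRPS10) and of MRPL9, the steadiest member, with means (bars) and SD (lines, n = 3). NC-Guide2 has the highest control mean in the first 5, while MRPL9 stays between 48 and 57.7 CPM.

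The choice of control libraries changed most calls. Against the 4 that lay apart, GATA1TSS lowered 3 members, MRPS30 (-0.29, adjusted p = 0.0031), MRPL30 (-0.21, adjusted p = 0.028) and MRPL34 (-0.29, adjusted p = 0.00316), and raised 0, beside 5.39% of genes lower and 4.84% higher. Against the same 4, 0 members were called with eHDAC6, beside 0.587% of genes lower and 0.899% higher, with 4 members at an unadjusted p under 0.05. MRPS30 was then at -0.19 (adjusted p = 0.123), MRPL1 at -0.19 (adjusted p = 0.382) and MRPS5 at 0.038 (adjusted p = 0.805) with eHDAC6.

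Against the other 8 control libraries, GATA1TSS lowered 13 members and raised 2, MRPL35 and MRPS5, beside 14.2% and 18.9% of genes. With eHDAC6 the counts were 11 lower and 5 higher (MRPL23, MRPL35, MRPL38, MRPL52 and MRPS5), beside 15.8% and 21.2%. MRPS30 and MRPL30 were the only members called the same way against both sets of controls, both lower with GATA1TSS. Both fits use the same GATA1TSS libraries, so they are not independent. The share of all genes called the same way against both sets was not counted. MRPL45 with eHDAC6 changed sign, at 0.014 (adjusted p = 0.95) against the 4 and -0.22 (adjusted p = 0.0032) against the 8. MRPL34 with GATA1TSS was called against the 4 and not against the 8 (-0.095, adjusted p = 0.252).

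**Figure D5:**
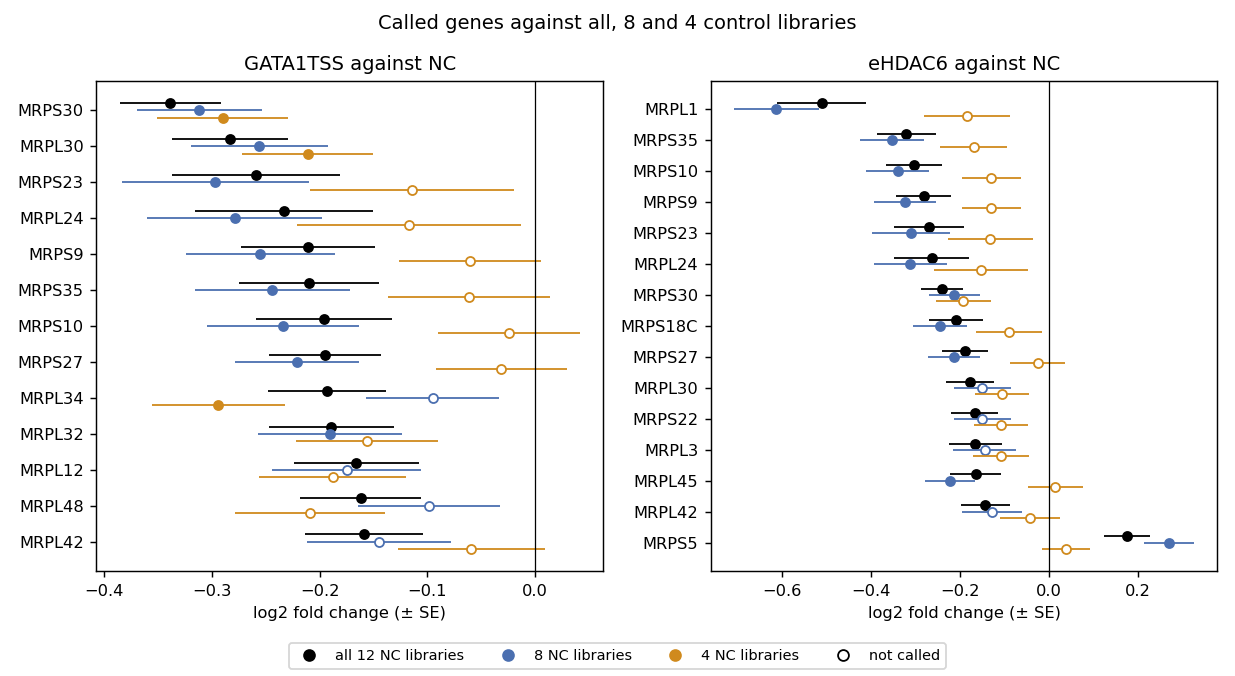
Log2 fold change (± SE) of the called members against all 12 NC libraries (black), the 8 (blue) and the 4 that lay apart (orange), with filled points for called genes. For GATA1TSS, MRPS30 and MRPL30 are filled in all 3 colours, and for eHDAC6 every orange point is open.

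The paralogs MRPS18A, MRPS18B and MRPS18C, which descend from 1 bacterial protein and occupy different places in the ribosome, were compared because their products are related. MRPS18C was lower with eHDAC6 (-0.21, SE 0.061, adjusted p = 0.0105), at 50.5 to 55.6 CPM against 49.7 to 74.3 CPM with NC. With GATA1TSS it was at -0.16 (adjusted p = 0.0527). MRPS18A and MRPS18B were called with neither element, with values of -0.034 and -0.077 for GATA1TSS and -0.084 and -0.031 for eHDAC6. A difference between the paralogs was not tested.

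The members lie on 18 chromosomes. For 26 of them another gene starts on the opposite strand within 1 kb. MRPL46 and MRPS11 are such a pair, 51 bases apart, and neither was called with an element. PTCD2, next to MRPS27, was lower with MRPS27 for GATA1TSS (-0.29, adjusted p = 0.007) and eHDAC6 (-0.21, adjusted p = 0.0386). HELQ (-0.23, adjusted p = 0.0328) was lower beside MRPS18C with eHDAC6. In contrast MITD1, whose start is 50 bases from that of MRPL30, was higher with eHDAC6 (0.24, adjusted p = 0.0362) while MRPL30 was lower. BRCAT54, a noncoding RNA with a mean of 1.77 CPM next to MRPS30, was lower with eHDAC6 (-0.91, SE 0.275, adjusted p = 0.0132) and at -0.67 (adjusted p = 0.0571) with GATA1TSS. PSMA2 beside MRPL32 (-0.14 with GATA1TSS, adjusted p = 0.0904) was not called, nor was LOC102724691 beside MRPS9 (-0.14 and -0.11 for GATA1TSS and eHDAC6). With GATA1TSS 1 pair was lower together, and 4 lower members had a partner that was not called. With eHDAC6 these counts were 3 and 1, and 1 lower member had a higher partner.

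A partner was called beside 6 members that were not called themselves with GATA1TSS, and beside 7 with eHDAC6. These counts leave out the called members, so they are not shares of the 26. Over all genes tested, 27.2% were called with GATA1TSS and 31.1% with eHDAC6. GGA3 (0.24 and 0.39 for GATA1TSS and eHDAC6) and EME2 (0.52 and 0.61) were higher with both elements beside MRPS7 and MRPS34, and APBA3 (0.27 and 0.30) beside MRPL54. CYB5RL beside MRPL37 was lower with both (-0.22 and -0.29). NCAPD2 (0.16) and PPP1R10 (0.16) were higher with GATA1TSS beside MRPL51 and MRPS18B. With eHDAC6, SARS2 beside MRPS12 was higher (0.20), and C10orf2 beside MRPL43 (-0.26) and ZNF189 beside MRPL50 (-0.29) were lower. Exons of 12 members overlap those of another gene, 11 of them on the opposite strand and MRPS24 on the same strand as URGCP-MRPS24, so reads there may be split. MRPS9 and MRPS18C are the called members among the 12.

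Other genes of the same machinery gave mixed calls, beside 27.2% of all genes tested called with GATA1TSS and 31.1% with eHDAC6. Of 6 mitoribosomal proteins without an MRP symbol, 2 were lower with GATA1TSS, ICT1, a peptidyl-tRNA hydrolase built into the large subunit (-0.26, adjusted p = 0.00069), and DAP3, a GTP-binding small-subunit protein (-0.11, adjusted p = 0.0462), and 0 were called with eHDAC6. Of 11 translation factors, PDF (-0.22, adjusted p = 0.0378), which removes formyl groups from new proteins, was lower with GATA1TSS. GFM1, an elongation factor, was lower with eHDAC6 (-0.23, adjusted p = 0.00721). No other translation factor was called with either element.

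Of 20 assembly and rRNA modification genes, 2 were higher and 2 lower with GATA1TSS, and 4 higher and 0 lower with eHDAC6. That is 20% of the list called with each element, beside 27.2% and 31.1% of all genes tested. The GTPase NOA1 (-0.27, adjusted p = 0.00136) and RBFA (-0.23, adjusted p = 0.0178) were lower with GATA1TSS. The assembly factor MPV17L2 (0.25 and 0.39, adjusted p = 0.0497 and 0.00263) and the protease SPG7 (0.25 and 0.34, adjusted p = 0.0256 and 0.00265) were higher with GATA1TSS and eHDAC6. METTL17 (0.26) and RPUSD3 (0.21) were higher with eHDAC6. Of 14 genes of mitochondrial transcription and mRNA handling, 1 was higher and 3 lower with GATA1TSS, and 3 higher and 3 lower with eHDAC6. Called shares of this list were 28.6% and 42.9%, beside the same 27.2% and 31.1%. LRPPRC, which stabilises mitochondrial mRNAs, went from 431 ± 50.9 CPM (n = 12) to 349 ± 16 CPM with GATA1TSS (-0.30, adjusted p = 2.84e-05) and 341 ± 11.5 CPM with eHDAC6 (-0.33, adjusted p = 1.49e-05). PTCD1 (-0.22) and SUPV3L1 (-0.15) were lower and TBRG4 (0.17) higher with GATA1TSS. With eHDAC6, TBRG4 (0.24), the mitochondrial RNA polymerase POLRMT (0.20) and ELAC2 (0.12) were higher, and HSD17B10 (-0.22) and TFAM (-0.19), which packs mitochondrial DNA, lower.

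The controls differed in these lists as well. Among the NC sgRNAs themselves, 6 of the 14 transcription and mRNA handling genes differed (42.9% beside 12.3% of all genes), LRPPRC, TBRG4 and TFAM among them. So did 2 of 20 assembly genes (NOA1 and MPV17L2), 2 of 11 translation factors (GFM1 and TSFM) and 0 of the 6 mitoribosomal proteins without an MRP symbol. The lists were set against the 4 and the 8 control libraries too, a choice made after seeing the data. Against the 4, eHDAC6 gave 0 calls by edgeR in all 4 lists, beside 1.49% of all genes called. In all, 3 genes were at an unadjusted p under 0.05. GATA1TSS gave 3 calls against the 4, NOA1 (-0.20, adjusted p = 0.0449), GFM2 and PTCD3, all lower, beside 10.2% of all genes called. LRPPRC was then at -0.12 (adjusted p = 0.146) with GATA1TSS and -0.16 (adjusted p = 0.131) with eHDAC6, and at -0.32 and -0.35 (adjusted p = 1.99e-05 and 4.75e-06) against the 8.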

How the data were processed

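The authors deposited 1 table of raw counts per gene symbol for 24 libraries. Per the submitters' processing notes, TopHat2 2.0.8 and Bowtie2 2.1.0 were used on hg19, with SAMtools 0.1.19 and Picard also named. The sources used here do not give the counting tool or its strand setting; the library protocol is strand-specific per the labels. Gene positions and exon lengths came from the deposited hg19 RefSeq models, promoters from RefSeq on GRCh38.p14.

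CPM were counts over library total times TMM factor (0.9515 to 1.033). Tests used edgeR 4.0.16 (R 4.3.3): TMM, filterByExpr (minimum count 10, minimum total 15), quasi-likelihood F tests with 1 coefficient per sgRNA over all 24 libraries, equal weight per sgRNA, and Benjamini-Hochberg adjustment over 13147 genes, called under 0.05. The fit was tested on simulated data. DESeq2 1.42.0, other scalings, no filter, a replicate block, other sample sets and each library left out were alternatives. The replicate numbers did not pair the libraries. The members, gene lists and control split were chosen with earlier results of these data known. Named members were up to 5 called genes per direction and subunit by size, the smallest p between sgRNAs of an element and among controls, the extremes of level and spread, members called against both control sets, the MRPS18 paralogs and head-to-head partners where either was called. The other lists were named by up to 4 called genes with the largest change; DAP3, ICT1, PDF and GFM1 are all called genes of theirs. Other names were chosen after their values were seen.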

Additional observations from a re-analysis of the deposited data

Results flagged for a closer look

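The 74 groups of 6 libraries were 4 summed quantities and the members named by rule, in each element. Members were named partly by change, p or spread in these data, so the chance rate for an outlier, 1 in 20, does not apply. Of the 74 groups, 5 had a library set apart from the rest by more than Dixon's 95% criterion. In 3 of the 5 it was GATA1TSS-Guide2 replicate 2, the shallowest library: MRPS12 at 29.6 CPM with the other GATA1TSS libraries at 54.7 to 63.3, MRPS23 at 31.4 CPM with the others at 42.2 to 48, and MRPS34 at 58.9 CPM with the others at 86.5 to 99.2. For eHDAC6, replicate 2 of eHDAC6-Guide2 had a summed small-subunit level of 1960 CPM with the others at 1840 to 1870, and its replicate 3 had MRPS35 at 84.2 CPM with the others at 94.5 to 98.2. MRPL2 and MRPL4 differed between the GATA1TSS sgRNAs (log2 differences of -0.285 and -0.397, GATA1TSS-Guide2 lower), as tested in the model.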

How the results depend on the processing

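Scaling by library totals gave 7 lower and 2 higher members for GATA1TSS, 8 for GATA1TSS-Guide2 against NC, 1 between the GATA1TSS sgRNAs and 17 among the controls. Without the filter on low counts 1 member differed between the GATA1TSS sgRNAs. Fitting the compared groups alone gave 2 for eHDAC6 against GATA1TSS (MRPL1 and MRPL32), 8 for GATA1TSS-Guide2, 5 for eHDAC6-Guide2, 0 between the GATA1TSS sgRNAs and 0 among the controls. With counts summed per sgRNA, which leaves 8 samples, 0 members were called lower with GATA1TSS, 0 lower and 0 higher with eHDAC6; MRPS30 was then at an adjusted p of 0.0551 for GATA1TSS and 0.132 for eHDAC6.

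Against the 4 controls 3 members were lower with GATA1TSS and 0 lower and 0 higher with eHDAC6, and MRPL45 reversed to 0.014. Against the 8, 2 were higher with GATA1TSS and 5 with eHDAC6. Without eHDAC6-Guide1 6 were lower with eHDAC6, and without eHDAC6-Guide2 5 lower and 0 higher. Without GATA1TSS-Guide1 1 member (MRPL2) differed between elements, and without GATA1TSS-Guide2 2 were lower with GATA1TSS. Leaving out NC-Guide1 gave 0 higher with eHDAC6. Leaving out NC-Guide2 gave 8 lower and 1 higher with GATA1TSS, 5 lower and 2 higher with eHDAC6. Leaving out NC-Guide3 gave 1 higher with GATA1TSS and 3 with eHDAC6, and leaving out NC-Guide4 1 higher with GATA1TSS. The cause of these shifts was not tested. Counts of members in alternative fits are given without the share of all genes called, except above for the 4 and the 8 control libraries.

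With 1 library left out at a time, GATA1TSS had 6 to 17 lower and 0 to 1 higher, eHDAC6 9 to 15 lower and 0 to 2 higher, and eHDAC6 against GATA1TSS 0 to 0. The single sgRNAs against NC had 0 to 6 (GATA1TSS-Guide1), 8 to 16 (GATA1TSS-Guide2), 0 to 7 (eHDAC6-Guide1) and 2 to 12 (eHDAC6-Guide2). Between sgRNAs the counts were 0 to 1 for GATA1TSS and 0 to 0 for eHDAC6, and among controls 0 to 19.

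Same-numbered libraries were no more alike than others (median correlation of deviations 0.0158 and -0.00592; 7 of 24 libraries correlated best with their own number). The replicate block gave 13 lower and 0 higher for GATA1TSS, 14 lower and 1 higher for eHDAC6, 0 for eHDAC6 against GATA1TSS, 2 and 13 for the GATA1TSS sgRNAs, 5 and 9 for the eHDAC6 sgRNAs, 2 and 0 between sgRNAs and 10 among controls. DESeq2 gave 14 lower and 0 higher for GATA1TSS and 15 lower and 1 higher for eHDAC6.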
